A study of Homo sapiens with 6 samples.

Results

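The SR proteins and the hnRNPs are the main families of RNA-binding proteins that steer pre-mRNA splicing, and their genes were followed here by name. Members were the symbols in the count files made of SRSF and a number, or of HNRNP and further letters or digits, after pseudogenes (names ending in P and a number) had been left out. This gave 34 genes among the 56638 symbols counted, 12 SR protein genes and 22 hnRNP genes. The material was a human colorectal cancer cell line, in which the study knocked down GLCC1, a long noncoding RNA named lncRNA-AF339830 in the sample labels. The Control siRNA libraries (n = 3) came from cells given a nonspecific siRNA, and the GLCC1 siRNA libraries (n = 3) came from cells given siRNA against GLCC1. The labels name SW480 cells and the methods of the study name DLD-1 cells, both established lines from colorectal tumours, so that the condition was compared within 1 line only. Groups here are those of the sample titles, whereas the names of the libraries carry the opposite siRNA, and under the latter every direction below would turn. GLCC1 is not among the symbols counted, so the knockdown could not be checked, and the duration of the transfection is not given in the sources used here. The titles number the GLCC1 siRNA libraries siRNA1 to siRNA3, while the genotype label reads siRNA1 for all of them. The numbers were taken as replicates, and whether they name different siRNA duplexes cannot be told from the labels. The study describes its replicates in general as biological and collected separately, without naming these libraries, so the p-values measure the spread between these libraries, part of which may be technical.

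The libraries held 11948790 to 19042516 counted read pairs, and levels below are in CPM, the count scaled to library size after TMM normalization in edgeR. GLCC1 siRNA replicate 2, the library with the fewest counts, stood apart from replicates 1 and 3, with a chi-square per degree of freedom of 18.1 and 19.0 against 1.93 to 4.16 for all other pairs of the same condition. Its share of read pairs on no annotated gene was 12.7%, against 11.2% at most in the other GLCC1 siRNA libraries and 9.82% to 10.1% in the control libraries. Of 11 markers of colorectal epithelium, 9 reached 1 CPM on average. By the test below 7 (63.6%) were lower with GLCC1 siRNA, against 16.7% of all genes tested. VIL1, at 205 CPM in the control mean, went the other way, with a log2 fold change of 0.21 (adjusted p = 0.067, edgeR). With library totals in place of TMM, 6 markers were lower and VIL1 was higher, at 0.33 (adjusted p = 0.0056, edgeR). EPCAM was not called there (adjusted p = 0.23). The summed level of the 11 was 5523 to 5928 CPM with Control siRNA and 2398 to 2813 CPM with GLCC1 siRNA. KRT8 was the largest part, at 3584 CPM in the control mean after TMM. Both marker sums in this paragraph are scaled to library totals without TMM. Of 7 markers of immune, stromal and endothelial cells, 3 were at 0 in every library and only COL1A1 reached 1 CPM, and their sum was 11.7 to 15.1 CPM and 7.36 to 9.95 CPM, respectively. The part of the epithelial markers in the results below was not tested. In bulk RNA, fewer cells of a kind and less RNA per cell cannot be told apart.

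SR proteins carry RNA recognition motifs and a tail rich in arginine and serine, bind enhancer sequences in exons, and recruit the splicing machinery once their tails are phosphorylated. The hnRNPs coat nascent transcripts, often act against exon inclusion, and also serve in RNA packaging, export, stability and translation. Many genes of both families carry alternative exons that send their own transcripts to nonsense-mediated decay, so that the proteins limit their own level. In intestinal epithelium and in colorectal tumours, both families are expressed in nearly all cells, and hnRNP A1, hnRNP A2/B1 and PTBP1 are known for their binding around the alternative exons of the pyruvate kinase gene PKM. The counts are sums over each gene, so they do not separate these isoforms.

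Nearly all members were expressed, with calls in both directions among the hnRNP genes and in 1 direction among the SR protein genes. Of 34 members, 33 passed the minimum of 5 counts summed over a condition and were tested, and 32 of these averaged 10 CPM or more. At an adjusted p under 0.05 from edgeR, 7 members were higher with GLCC1 siRNA (SRSF8, SRSF10, HNRNPD, HNRNPH3, HNRNPM, HNRNPU and HNRNPUL2) and 4 were lower (HNRNPA3, HNRNPF, HNRNPH2 and HNRNPUL1). These 11 were 33.3% of the members tested, and the share was 31.6% over the 23074 genes tested, 14.9% higher and 16.7% lower. Among genes that averaged 10 CPM or more, a level that only SRSF12 of the members tested did not reach, 49.9% of 10378 genes passed, 20.1% higher and 29.8% lower. The libraries of the conditions did not overlap for 20 of the 32 members, 62.5%, as against 63.9% of all genes of that level. The number of members that passed was therefore near or under the background, and what follows concerns which of them did and by how much. The largest differences among the members of that level were those of HNRNPH3 and HNRNPF, which lie in the same protein subfamily and went in opposite directions.

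**Figure D1:**
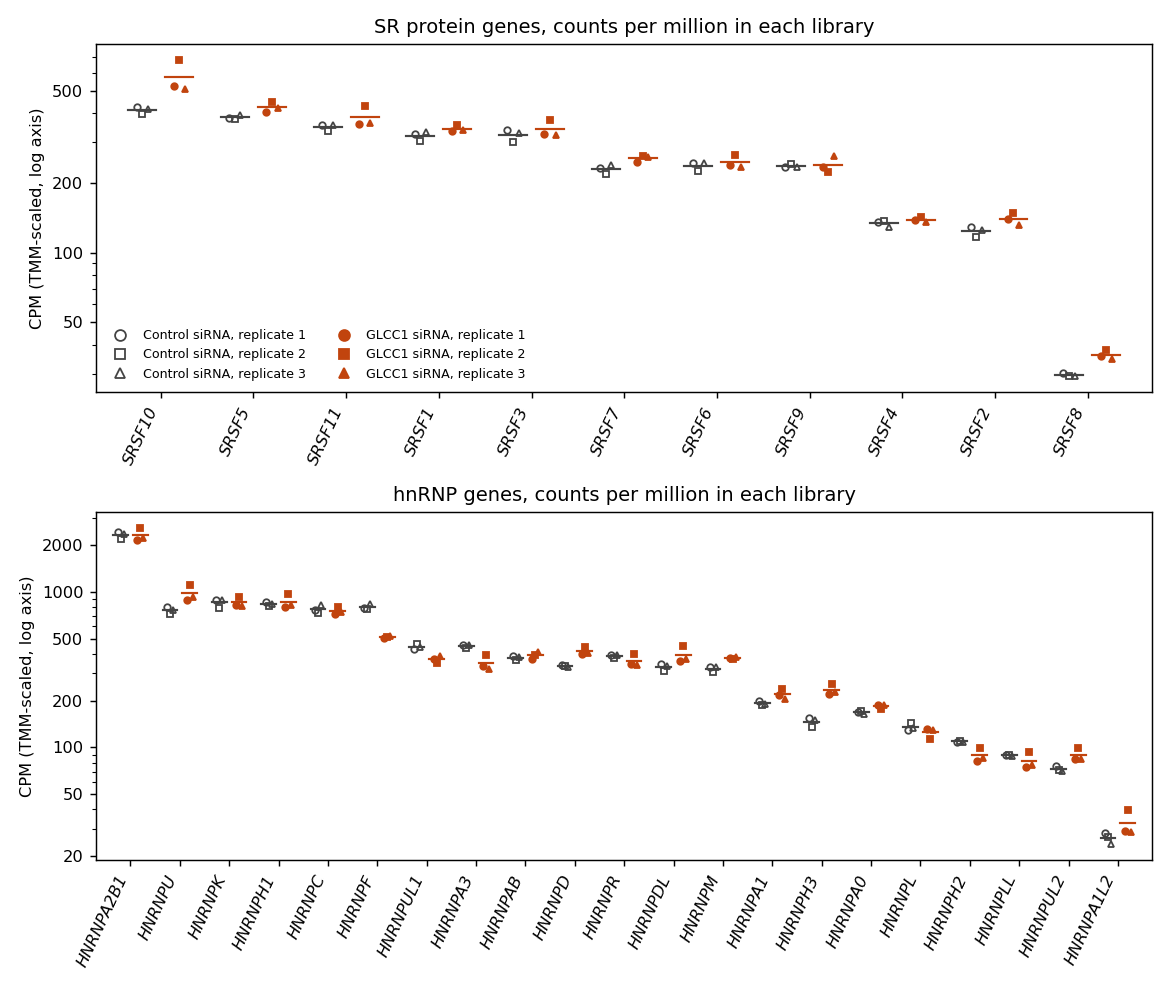
Level of each SR protein gene (upper plot) and hnRNP gene (lower plot) averaging 10 CPM or more, in CPM on a log axis, with 1 symbol per library (open, Control siRNA, n = 3; filled, GLCC1 siRNA, n = 3) and a line at the mean of each condition. HNRNPF lies between 507 and 521 CPM with GLCC1 siRNA and between 778 and 833 CPM with Control siRNA, and the filled square, GLCC1 siRNA replicate 2, is the highest of its 3 libraries for 25 of 32 members.

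Of the SR protein genes, SRSF10 and SRSF8 were higher with GLCC1 siRNA and none passed the test in the other direction. The 2 of 12 called were 16.7%, against 31.6% of all genes tested and 49.9% of those averaging 10 CPM or more. SRSF10 encodes a protein that turns into a general repressor of splicing when it loses its phosphates, as after heat shock. It had 426, 399 and 417 CPM in Control siRNA replicates 1 to 3, and 525, 682 and 509 CPM in GLCC1 siRNA replicates 1 to 3. All 3 GLCC1 siRNA libraries lay above all 3 control libraries, with replicate 2 well above the other two. This is a log2 fold change of 0.47 (SE, the standard error, 0.10; 1.38-fold; adjusted p = 0.0035, edgeR), and without GLCC1 siRNA replicate 2 it was 0.33 (adjusted p = 6.89e-07).

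SRSF8, a paralogue of SRSF2, had the lowest level per length of the SR protein genes that reached 10 CPM. It had 30.3, 29.3 and 29.2 CPM with Control siRNA and 35.9, 37.9 and 34.6 CPM with GLCC1 siRNA, without overlap. Its log2 fold change of 0.29 (SE 0.09, adjusted p = 0.030, edgeR) did not pass the threshold in 4 of the 6 fits that leave out 1 library, those without any 1 of the control libraries or without GLCC1 siRNA replicate 1, with an adjusted p of up to 0.12.

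The other SR protein genes with at least 10 CPM did not pass, and each had a log2 fold change above 0 that was smaller than that of SRSF8. SRSF5, which favours exon inclusion, had 384, 380.2 and 392 CPM with Control siRNA and 404, 448 and 422 CPM with GLCC1 siRNA. The conditions did not overlap, but the difference of 0.14 on the log2 scale had a 95% interval from -0.02 to 0.30 (adjusted p = 0.18, edgeR). For SRSF11, a protein with a similar arginine and serine tail, the values were 357, 336 and 357 CPM against 359, 432 and 362 CPM, and only replicate 2 of GLCC1 siRNA stood clearly above the controls. Its log2 fold change was 0.13 (adjusted p = 0.28, edgeR).

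SRSF2, a protein of nuclear speckles, and SRSF7, which also takes part in mRNA export, had log2 fold changes of 0.18 and 0.16 (adjusted p = 0.12 and 0.14, edgeR). Both passed in the fit without GLCC1 siRNA replicate 2, at 0.14 (adjusted p = 0.031) and 0.15 (adjusted p = 0.020). In that fit, which is also given for genes below, 44.1% of 22470 genes passed, against 31.6% with all libraries. SRSF1, the founding member of the family, had one of 0.10, SRSF3, which links splicing to export, 0.08, SRSF4 and SRSF6, which have long arginine and serine tails, 0.05 each, and SRSF9, a shorter relative of SRSF1, 0.02. SRSF12, a relative of SRSF10, had no count in the control libraries and 3, 4 and 1 counts in GLCC1 siRNA replicates 1 to 3 (adjusted p = 0.055, edgeR). These counts are too few for a fold change.

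The median log2 fold change of the 11 SR protein genes with at least 10 CPM was 0.13, and that of all genes of this level was -0.07. All 11 were above 0, but SRSF9 was below 0 when GLCC1 siRNA replicate 3 was left out. Their summed level was 2784 ± 80.3 CPM (SD, n = 3) with Control siRNA and 3124 ± 215 CPM with GLCC1 siRNA. Control siRNA gave 2833, 2691 and 2827 CPM and GLCC1 siRNA 2986, 3372 and 3014 CPM, so the conditions did not overlap and replicate 2 was the highest. GLCC1 siRNA replicate 2 was the highest of its 3 libraries for 10 of 11 SR protein genes and for 15 of 21 hnRNP genes, against 43.6% of all genes with at least 10 CPM.

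**Figure D2:**
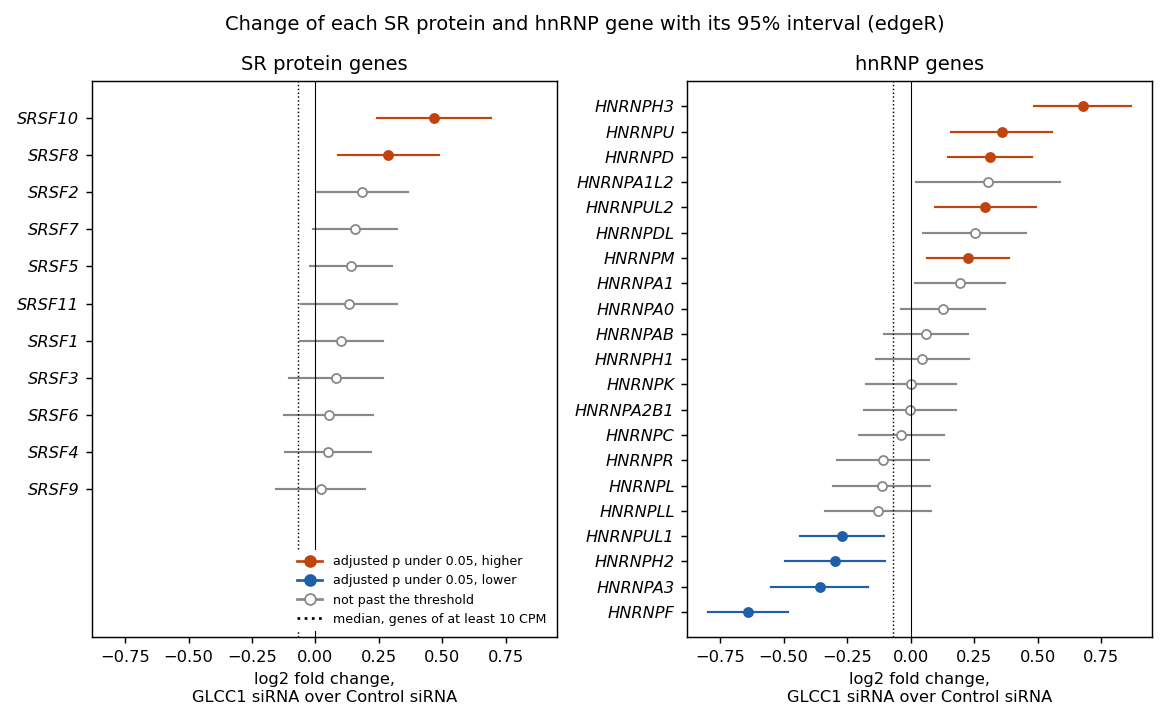
Log2 fold change of each SR protein gene (left) and hnRNP gene (right) averaging 10 CPM or more, GLCC1 siRNA over Control siRNA, as points with their 95% intervals from edgeR (3 libraries against 3). The solid line is at 0 and the dotted line at -0.07, the median of all genes of this level. HNRNPH3 at 0.68 and HNRNPF at -0.64 lie farthest from 0.

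The hnRNP F and H proteins bind runs of guanines through a special kind of RNA recognition motif, and HNRNPF and HNRNPH3 stood farthest apart among their 4 genes. HNRNPF had 794, 778 and 833 CPM with Control siRNA and 507, 515 and 521 CPM with GLCC1 siRNA. The conditions were far apart, and the 3 GLCC1 siRNA libraries, replicate 2 included, lay close together. On the log2 scale the change was -0.64 (SE 0.07, adjusted p = 1.83e-05, edgeR), and leaving out any 1 library gave values from -0.66 to -0.61.

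HNRNPH3, which encodes the shortest of these proteins, went the other way. Control siRNA gave 154, 135 and 149 CPM, and GLCC1 siRNA gave 220.0, 255 and 227 CPM, without overlap. Its log2 fold change of 0.68 (SE 0.09, 1.60-fold, adjusted p = 6.12e-05, edgeR) was 0.62 without GLCC1 siRNA replicate 2.

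HNRNPH2, a paralogue of HNRNPH1 on the X chromosome, had 109, 111 and 109 CPM with Control siRNA and 82.0, 99.6 and 85.3 CPM with GLCC1 siRNA. Replicate 2 was nearest to the controls, and the groups did not overlap. The log2 fold change was -0.30 (SE 0.09, adjusted p = 0.023, edgeR), but only the fit without GLCC1 siRNA replicate 2 kept it under the threshold among the 6 that leave out 1 library, with adjusted p between 0.074 and 0.10 in the others. With library totals in place of TMM it was -0.18 (adjusted p = 0.17). HNRNPH1, the most abundant of the 4 per length of the canonical transcript (with merged exons HNRNPF was), had a log2 fold change of 0.05 (95% interval from -0.14 to 0.23, adjusted p = 0.72, edgeR), which became -0.04 without GLCC1 siRNA replicate 2.

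Ratios of 2 genes within a library do not depend on how libraries are scaled. The count of HNRNPH1 was 1.04 times that of HNRNPF in the control mean and 1.67 times with GLCC1 siRNA, a difference of 0.68 on the log2 scale. The log2 ratios were 0.11, 0.07 and 0.01 with Control siRNA and 0.66, 0.91 and 0.66 with GLCC1 siRNA. HNRNPH1 over HNRNPH2 went from 7.66 to 9.71, and its log2 ratio was between 3.27 and 3.29 in the 3 GLCC1 siRNA libraries and between 2.88 and 2.98 in the controls. Without overlap, the two-sided exact permutation test gives p = 0.1 for each, the smallest that 3 libraries against 3 allow, and 0.14 after adjustment over the 13 pairs compared.

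**Figure D3:**
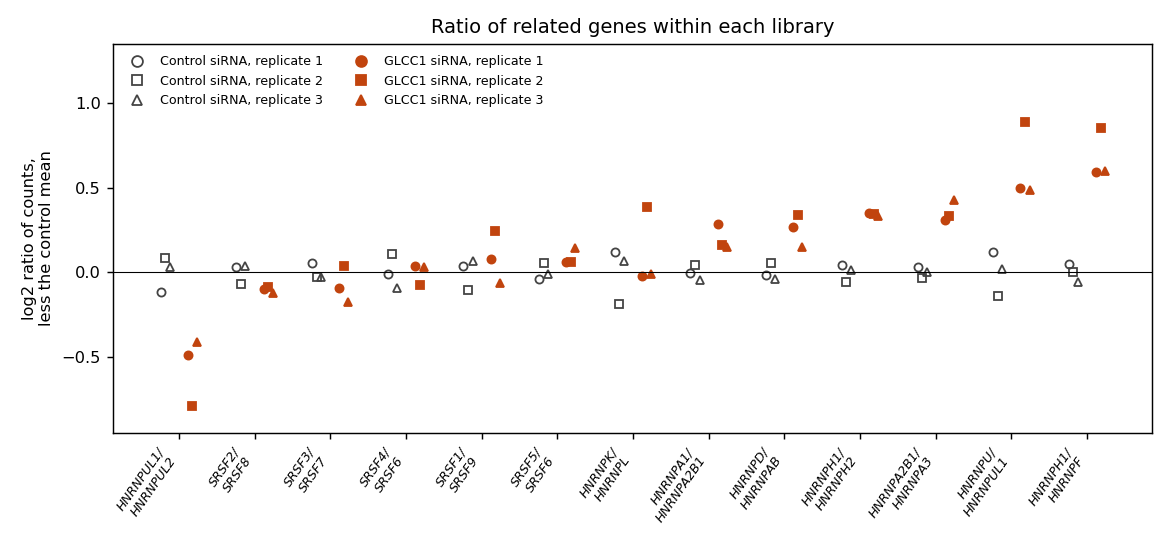
Log2 ratio of the counts of 2 related genes in each library, less the mean of the control libraries, for the 13 pairs compared (open, Control siRNA, n = 3; filled, GLCC1 siRNA, n = 3). The conditions do not overlap for 9 of 13 pairs, where single genes of 10 CPM or more do not overlap in 63.9% of cases, and several pairs share a gene. HNRNPH1 over HNRNPF shows the widest difference, 0.68.

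The hnRNP A and B proteins bind motifs with UAG and are among the most abundant proteins of the nucleus. HNRNPA2B1 had the highest level per length of the hnRNP genes, 642 CPM per kilobase of its canonical transcript in the control mean, and its conditions overlapped. Its values were 2422, 2197 and 2366 CPM with Control siRNA and 2153, 2584 and 2233 CPM with GLCC1 siRNA. The difference of the means was small: the log2 fold change was -0.003 with a 95% interval from -0.18 to 0.18 (adjusted p = 0.98, edgeR), and its sign turned under several settings.

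HNRNPA3, a close relative in the A and B group, was lower with GLCC1 siRNA. The libraries had 456, 434 and 455 CPM with Control siRNA and 335, 395 and 319 CPM with GLCC1 siRNA, and replicate 2 again lay nearest to the controls. The log2 fold change was -0.36 (SE 0.09, adjusted p = 0.0072, edgeR) and passed in all 6 fits that leave out 1 library, from -0.45 to -0.29. With library totals it was -0.24 (adjusted p = 0.066). The count of HNRNPA2B1 was 5.19 times that of HNRNPA3 in the control mean and 6.65 times with GLCC1 siRNA, without overlap of the libraries.

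HNRNPA1, the best known repressor of exons in the family, had a log2 fold change of 0.19 (SE 0.08, adjusted p = 0.093, edgeR) and HNRNPA0, which binds AU-rich elements, 0.13 (adjusted p = 0.23). HNRNPA1L2, a copy of HNRNPA1 without introns, had one of 0.30 (adjusted p = 0.095) at 26.2 CPM in the control mean. All 3 had GLCC1 siRNA libraries above the control libraries without overlap. Without GLCC1 siRNA replicate 2, HNRNPA1 at 0.14 (adjusted p = 0.031, edgeR) and HNRNPA0 at 0.16 (adjusted p = 0.0099) passed, and HNRNPA1L2 was at 0.15 (adjusted p = 0.14). The ratio of HNRNPA1 to HNRNPA2B1 differed by 0.20 on the log2 scale.

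Copies of HNRNPA1 were counted under names of their own. How read pairs divide among HNRNPA1 and its copies was not measured, so its own count is uncertain. The files list 128 pseudogenes named after a member, 75 of them after HNRNPA1, and 16 averaged 1 CPM or more, none of them of an SR protein gene. HNRNPA1P48 alone held 247 CPM in the control mean, more than the 192 CPM of HNRNPA1, and its log2 fold change was 0.22 (adjusted p = 0.045, edgeR). Its identity to HNRNPA1 was not computed, because it was not found in the annotation searched. HNRNPA1P10, on chromosome 19 from 11776884 to 11777845 in hg19, was 99.6% identical to HNRNPA1 over 752 aligned bases. It had 151, 140.2 and 146 CPM with Control siRNA and 171, 198 and 181 CPM with GLCC1 siRNA, a log2 fold change of 0.33 (adjusted p = 0.0079). With all its pseudogenes added, HNRNPA1 had a log2 fold change of 0.24 (SE 0.07, adjusted p = 0.021), a sum in which the pseudogenes made up 67.8% in the control libraries.

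For HNRNPA3, the pseudogenes took 45.0% of the summed count. HNRNPA3P6 (94.5% identical over 1060 bases) had a log2 fold change of -0.15 (adjusted p = 0.28, edgeR) and HNRNPA3P5 (97.5% identical) one of -0.43 (adjusted p = 0.0039), and the sum with HNRNPA3 gave -0.28 (adjusted p = 0.024). HNRNPC and HNRNPL, whose pseudogenes took 24.0% and 23.2% of their sums, did not pass the test with or without them. The exons of HNRNPA3 also share 3509 bases with NFE2L2 on the opposite strand, and the kit does not mark strand. Read pairs in these bases can come from either gene. Whether they were counted for one of them or left out as ambiguous is not known, since the strand setting is not given. NFE2L2 was higher with GLCC1 siRNA, with a log2 fold change of 0.42 (adjusted p = 0.0014, edgeR), the direction opposite to that of HNRNPA3.

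**Figure D4:**
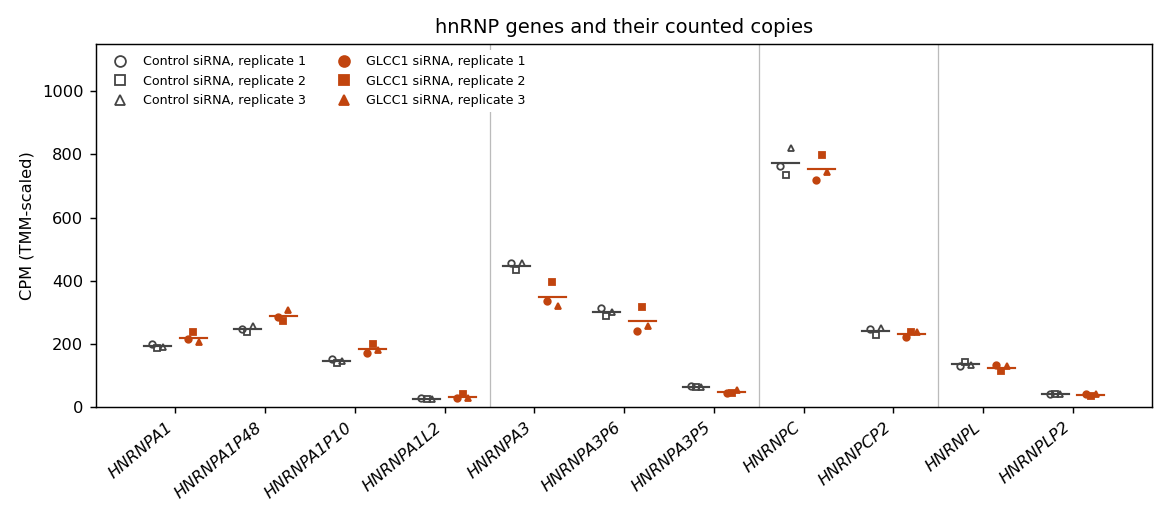
Level in CPM of HNRNPA1, HNRNPA3, HNRNPC and HNRNPL beside their most counted copies, with 1 symbol per library (open, Control siRNA, n = 3; filled, GLCC1 siRNA, n = 3), a line at each mean and grey lines between the genes. HNRNPA1P48 lies above HNRNPA1 in every library, and HNRNPA3 and HNRNPA3P5 were both lower with GLCC1 siRNA.

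Among the hnRNP D proteins, which bind AU-rich elements and affect mRNA decay, HNRNPD was higher with GLCC1 siRNA. It had 340.4, 334 and 328 CPM with Control siRNA and 398, 445 and 403 CPM with GLCC1 siRNA, without overlap. The log2 fold change was 0.31 (SE 0.08, adjusted p = 0.0071, edgeR). Without Control siRNA replicate 3 it was 0.30, with an adjusted p = 0.052. HNRNPDL, its nearest relative, missed the threshold at 0.25 (adjusted p = 0.059) and passed at 0.15 without GLCC1 siRNA replicate 2 (adjusted p = 0.021), and HNRNPAB had 0.06 (adjusted p = 0.59). The ratio of HNRNPD to HNRNPAB differed by 0.25 on the log2 scale, from 0.89 to 1.06, without overlap.

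The 3 genes of the hnRNP U group, large proteins that bind both RNA and chromatin, were all called and not in one direction. HNRNPU, also known as scaffold attachment factor A, had 800.4, 722 and 770.2 CPM with Control siRNA and 894, 1116 and 929 CPM with GLCC1 siRNA. The groups did not overlap, and replicate 2 was the highest. Its log2 fold change was 0.36 (SE 0.09, adjusted p = 0.0086, edgeR), 0.26 without GLCC1 siRNA replicate 2 and 0.32 (adjusted p = 0.062) without Control siRNA replicate 2.

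HNRNPUL1, which also has a role in mRNA export, was lower, with 429, 462 and 442 CPM against 368, 351 and 386 CPM and a log2 fold change of -0.27 (SE 0.08, adjusted p = 0.015, edgeR). HNRNPUL2, a relative with a part in the repair of DNA ends, had 76.0, 71.3 and 70.6 CPM against 84.4, 99.2 and 83.9 CPM and a log2 fold change of 0.29 (SE 0.09, adjusted p = 0.027). Neither overlapped between the conditions. Without Control siRNA replicate 2 or 3, HNRNPUL1 had adjusted p = 0.088 and 0.066, with library totals it was at -0.15 (adjusted p = 0.15), and without any 1 of the control libraries HNRNPUL2 had adjusted p from 0.060 to 0.13. The count of HNRNPU was 1.72 times that of HNRNPUL1 in the control mean and 2.65 times with GLCC1 siRNA, and the ratio of HNRNPUL1 to HNRNPUL2 went from 6.12 to 4.14.

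Some of these genes share exon bases with a neighbour on the other strand. HNRNPU overlaps COX20 by 3502 bases, and COX20 was counted at 4.27 CPM in the control mean with a log2 fold change of 0.34 (adjusted p = 0.15, edgeR). HNRNPUL1 overlaps TGFB1 by 215 bases, and TGFB1 was lower too, at -0.39 (adjusted p = 0.018). HNRNPH3 overlaps RUFY2 by 115 bases, and RUFY2 did not pass, at 0.09 (adjusted p = 0.65). On the same strand, HNRNPUL2 shares 2391 bases with HNRNPUL2-BSCL2 and HNRNPH2 shares 362 with RPL36A-HNRNPH2. HNRNPD shares 250 bases and HNRNPM 345 with genes whose names are not among the symbols counted. For HNRNPF, SRSF8 and SRSF10 no shared exon base was found. Only 33872 of the 56638 symbols matched the GENCODE annotation searched, and the annotation used for counting was not searched.

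The remaining hnRNP genes include the one other member that passed the test. HNRNPM, whose protein favours exon skipping at GU-rich sites and is known from epithelial to mesenchymal change, had 329, 305 and 328 CPM with Control siRNA and 374, 368 and 382 CPM with GLCC1 siRNA. The groups did not overlap and its GLCC1 siRNA libraries lay close together. The log2 fold change was 0.23 (SE 0.07, adjusted p = 0.034, edgeR), and it passed only without GLCC1 siRNA replicate 2 among the fits that leave out 1 library, with adjusted p from 0.071 to 0.17 in the others.

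HNRNPK, which binds runs of cytosines through KH domains, had 891, 794 and 883 CPM with Control siRNA and 826, 932 and 815 CPM with GLCC1 siRNA. The values overlapped, and the log2 fold change was 0.002 with a 95% interval from -0.18 to 0.18 (adjusted p = 0.99, edgeR). HNRNPC, a protein of the particles that package nascent RNA, had -0.04 (adjusted p = 0.76), HNRNPL, which binds CA repeats, -0.11 (adjusted p = 0.36), and its paralogue HNRNPLL -0.13 (adjusted p = 0.34). HNRNPR, which acts in mRNA transport and stability, had -0.11 (adjusted p = 0.35). Without GLCC1 siRNA replicate 2, HNRNPLL at -0.23 (adjusted p = 0.00096) and HNRNPR at -0.18 (adjusted p = 0.0035) passed. HNRNPCL1, a copy of HNRNPC, had 3 counts in 1 library and none in the other libraries and was not tested.

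The summed level of the 22 hnRNP genes was 9940 ± 334 CPM (SD, n = 3) with Control siRNA and 10000 ± 726 CPM with GLCC1 siRNA, with overlap. The median log2 fold change of the 21 genes tested was 0.05, with 12 above 0 and 9 below. Of these genes, 5 were called higher and 4 lower (42.9%), against 31.6% of all genes tested and 49.9% of those averaging 10 CPM or more. Relative to the median of all genes tested, HNRNPF stood at -0.67 and HNRNPH3 at 0.65. With library totals in place of TMM, the median of all genes shifted up by 0.12, and 17 members were called higher and 1, HNRNPF, lower. Over all genes tested, 32.6% were then called, 4735 higher and 2797 lower.

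For the ranking within each family, levels were taken per kilobase of the canonical transcript. Among the SR protein genes, SRSF5 had the highest control mean, 258 CPM per kilobase, followed by SRSF9 at 205, SRSF7 at 97.5, SRSF11 at 88.5, SRSF3 at 76.4 and SRSF2 at 65.4. SRSF1 and SRSF4, at 60.0 and 58.3, overlapped over the control libraries, as did SRSF6 and SRSF10, at 54.6 and 54.0. SRSF2 and SRSF1 overlapped too, and SRSF8 was far below at 6.87. Among the hnRNP genes, HNRNPA2B1 at 642 was followed by HNRNPH1 at 374, HNRNPF at 312, HNRNPK at 296 and HNRNPC at 244. HNRNPF and HNRNPK overlapped over the control libraries. With GLCC1 siRNA, HNRNPF fell to 200.2 CPM per kilobase, below HNRNPK, HNRNPC and HNRNPAB, and HNRNPH3 rose from 62.1 to 99.4. With the merged exons of all isoforms as the length, HNRNPF and not HNRNPA2B1 was first.

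The promoters were read because the study follows c-Myc, a transcription factor known to bind the E-box CACGTG. RefSeq promoters (GRCh38.p14, from 250 bases before to 50 bases after a start site) were matched for 32 of 34 members. The E-box, which reads the same on both strands, stood in 7 of 32 (21.9%), in 0 of 11 SR protein genes and 7 of 21 hnRNP genes, in 11.9% of 11513 tested genes with a promoter, and in 8.78% of all 27305 genes of the table. The 7 were HNRNPD, HNRNPH3 and HNRNPM, which were higher with GLCC1 siRNA, HNRNPA3, HNRNPH2 and HNRNPUL1, which were lower, and HNRNPDL, which did not pass. Thus the letters stood in the promoter windows of genes of both directions, and HNRNPF, with the largest fall, had none in its windows. The following 30 bases around the site, with the E-box in capitals, are shown for a pair from each direction: chr10:68331631-68331660 (+ strand) for HNRNPH3, chr4:82374001-82374030 (- strand) for HNRNPD, chr2:177212711-177212740 (+ strand) for HNRNPA3 and chrX:101408168-101408197 (+ strand) for the first of both sites of HNRNPH2.
HNRNPH3: tgccggtcgaacCACGTGgggccctttccg
HNRNPD: gcgctctcgcgtCACGTGaccgggacgcgc
HNRNPA3: cggaaaacgcgtCACGTGacgactggcccc
HNRNPH2: ccgagagttgctCACGTGaccgagatctca
Relative to the start site of its window, the E-box begins at -50 in HNRNPH3, -27 in HNRNPD, -71 in HNRNPA3 and -42 in HNRNPH2. A gene was counted when any of its windows held the E-box, and HNRNPH3 and HNRNPUL1 also have windows without it. A match is a description of the letters, and binding was not measured here.

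An siRNA can also pair with other transcripts through the seed of its guide strand, bases 2 to 8. The 3′ UTRs of the members were searched, on the sense strand, for the 7-base words ACCTTGA, which pairs with the seed of the guide that the study lists as its GLCC1 siRNA 1, and CCTTGAA, which overlaps the same site. The genotype label reads siRNA1 for the GLCC1 siRNA libraries, and the labels give no sequence. A word stood in 4 of 33 members (12.1%), all of them hnRNP genes, and in 20.2% of the genes tested, or 22.3% of those with at least 10 CPM. The 30 bases around each site in hg19, with the word in capitals, were chr2:178086138-178086167 (+ strand) for HNRNPA3, chr1:23632287-23632316 (- strand) for HNRNPR, chr5:137085173-137085202 (- strand) for HNRNPA0 and chr14:21677985-21678014 (- strand) for HNRNPC.
HNRNPA3: tgtttgacacaACCTTGAcagtatccttta
HNRNPR: gaaatattaagACCTTGAAcatagcagaaa
HNRNPA0: acttcatatttgCCTTGAAtgagaatttaa
HNRNPC: gtgatacctcatCCTTGAAaggcttagttc
Of these, HNRNPA3 was lower with GLCC1 siRNA and the others did not pass, with log2 fold changes of -0.11 for HNRNPR, 0.13 for HNRNPA0 and -0.04 for HNRNPC. HNRNPF, HNRNPH2 and HNRNPUL1, the other genes called lower, carry neither word in this annotation. The median log2 fold change was -0.07 for the 4 members with a word and 0.13 for the 29 without, and over genes averaging 10 CPM or more it was -0.17 for 2030 with a word and -0.04 for 7083 without. The 3′ UTRs of the 4 members had 2076 to 7498 bases and those of the 29 without had 260 to 6795. The medians were not matched for this length. Pairing at these sites was not tested.

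The partners of both families were described from 6 lists of other splicing genes, whose counts stand against 31.6% called over all genes and 49.9% over those averaging 10 CPM or more. Of 10 kinases and import factors of SR proteins, 2 were higher and 2 lower with GLCC1 siRNA. SRPK1, the kinase that phosphorylates SR proteins in the cytoplasm, was lower, with 171, 153 and 172 CPM against 94.1, 118 and 92.1 CPM, a log2 fold change of -0.71 (SE 0.10, adjusted p = 0.00017, edgeR). Its relative SRPK2 was higher by 0.40 (adjusted p = 0.0063), and CLK3, a nuclear kinase of SR proteins, was at -0.37 (adjusted p = 0.019), which did not pass with library totals (adjusted p = 0.088). SRPK3, at 5.15 CPM in the control mean, was higher by 0.74. The import factor TNPO3 had -0.05 and the kinases CLK1, CLK2, CLK4, DYRK1A and PRPF4B did not pass.

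Of 16 SR-related proteins tested, 4 were higher and 3 lower. SON, a scaffold of nuclear speckles, was higher by 0.43 (adjusted p = 0.00066, edgeR), ARGLU1 by 0.38 (adjusted p = 0.0033) and LUC7L3, a partner of the U1 particle, by 0.37 (adjusted p = 0.014). RBM39, SRRM1 and SRRM2 were lower, at -0.27, -0.24 and -0.24, and none of the 3 passed with library totals. Of 17 hnRNPs that carry other names, 5 were higher and 2 lower. TAF15 was higher by 0.76 (adjusted p = 7.84e-06), PTBP2 by 0.56 (adjusted p = 0.0010) and RBMX, also known as hnRNP G, by 0.39 (adjusted p = 0.0042). PTBP1, also known as hnRNP I, had 525, 557 and 522 CPM with Control siRNA and 543, 436 and 519 CPM with GLCC1 siRNA, which overlapped, and a log2 fold change of -0.10 (adjusted p = 0.44).

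The core spliceosome is the longest of the lists. Of 56 genes tested, 24 were lower and 3 higher, which is 48.2% called against 49.9% of genes of this level, and 42.9% lower against 29.8%. With library totals, 13 were lower and 6 higher, where 2797 of all 23074 genes tested were lower and 4735 higher. In the TMM fit 46 had a log2 fold change below 0, and the median was -0.23, against -0.07 for all genes with at least 10 CPM. EFTUD2, a GTPase of the U5 particle, was at -1.02 (adjusted p = 2.34e-06, edgeR), PRPF4 at -0.80 (adjusted p = 8.64e-06) and the helicase DHX8 at -0.78 (adjusted p = 2.44e-05). Of 15 genes of nonsense-mediated decay and the exon junction complex, 3 were higher and 3 lower, among them the helicase UPF1 at -0.74 (adjusted p = 3.60e-05), CASC3 at 0.55 and RBM8A at -0.48. Of 9 other splicing regulators, 3 were higher and 2 lower, led by MBNL3 at 1.15, ELAVL1 at -0.98 and ESRP2, a regulator of epithelial splicing, at -0.96. Over the 6 lists, 20 genes were higher and 36 lower, and with library totals the balance turned, to 30 higher and 20 lower. All genes tested went from 3429 higher and 3864 lower to 4735 higher and 2797 lower.

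**Figure D5:**
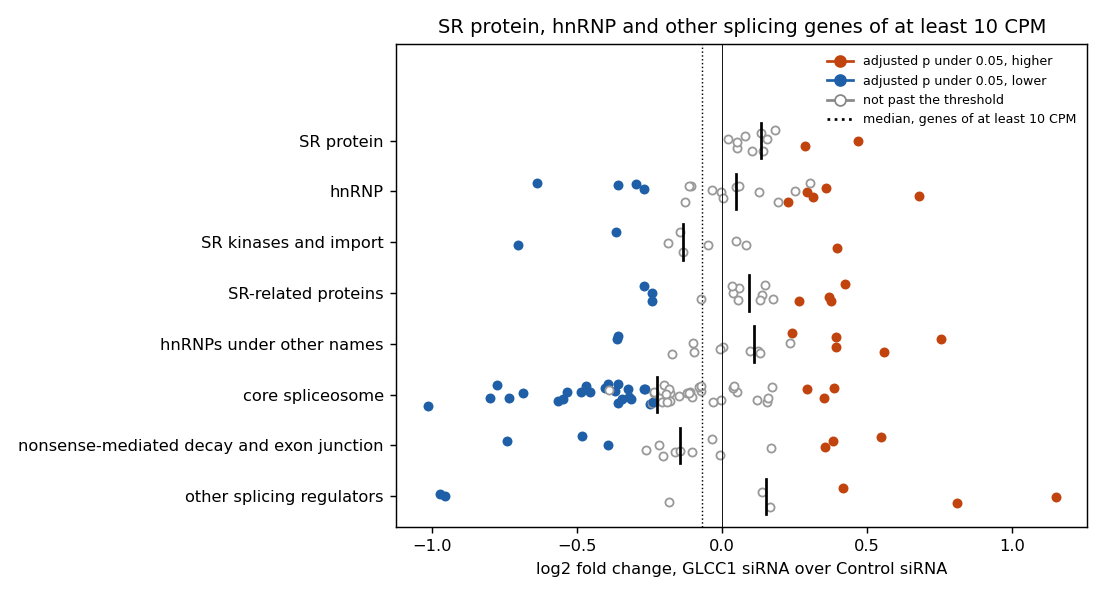
Log2 fold change, GLCC1 siRNA over Control siRNA, of the SR protein genes, the hnRNP genes and 6 lists of other splicing genes averaging 10 CPM or more, with 1 point per gene, a bar at each median and a dotted line at -0.07, the median of all genes of this level. The core spliceosome has its median at -0.23, the SR protein genes at 0.13 and the hnRNP genes at 0.05.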

How the data were processed

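RNA of 6 cultured samples was sequenced as paired reads from TruSeq RNA libraries. The values the authors deposited are whole-number counts of read pairs for each symbol, not normalized, in 1 file per library. Per the labels and the study's methods, reads were mapped to hg19 with TopHat 2.0.11 and counted with HTSeq in union mode, and the strand setting is not given in the sources used here. Tallies of unassigned reads were left out of library sizes. A gene was kept when its counts summed to 5 or more in either condition. The counts of 23074 genes were compared with the robust quasi-likelihood test of edgeR 4.0.16 (R 4.3.3) after TMM scaling, with Benjamini-Hochberg adjustment over all of them. The TMM factors were 0.950 to 0.972 with Control siRNA and 1.03 to 1.05 with GLCC1 siRNA, without overlap. Standard errors were derived from the F statistic. On simulated counts, 200 genes averaging 10 CPM or more were changed, with a median absolute fitted change of 1.02 on the log2 scale. The procedure recovered 200 of these 200 and called 210 genes. The called members all had smaller changes, and no simulated library was set apart as GLCC1 siRNA replicate 2 was. How well changes of their size are found was not tested. At about 30 CPM the standard error of SRSF8 was 0.09, and at about 650 CPM that of HNRNPF was 0.07. Positions, lengths, overlaps and 3′ UTRs come from GENCODE 44 lifted to GRCh37, in which all 34 members were found, and promoters from RefSeq. Identities were computed with blastn 2.17.0. The members and all lists and seed words were chosen with earlier results of these data known. Values per library are given for the called genes with the largest differences and the most abundant members of each family, and for HNRNPM and HNRNPUL2, chosen after their values were seen.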

Additional observations from a re-analysis of the deposited data

How the results depend on the processing

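HNRNPF, HNRNPH3 and SRSF10 passed under each alternative run, and HNRNPA3 under all but library totals. With library totals in place of TMM, 8 SR protein and 9 hnRNP genes were called higher and 1 hnRNP gene lower, 30 genes of the related lists were higher and 20 lower (against 20 and 36), the share of higher calls over all genes was 62.9% against 47.0%, and the log2 ratios of the summed levels were 0.29 (SR, against 0.17) and 0.13 (hnRNP, against 0.0087). HNRNPA2B1 then had 0.12, HNRNPC 0.086, HNRNPL 0.0079 and HNRNPR 0.014, all with the sign turned. With a filter of 10 counts in every library, 4 SR protein genes were higher, HNRNPA2B1 had 0.036 and HNRNPC 0.0026. Under that filter 46.9% of all genes were called. HNRNPA2B1 had 0.0094 with DESeq2 and with its size factors. DESeq2 called 8 members higher and 4 lower, and 29.0% of all genes. With 1 library left out in turn, the SR protein genes called higher were 1 to 4, the hnRNP genes 2 to 8 higher and 2 to 6 lower, the related lists 14 to 28 higher and 22 to 54 lower, and all genes 2381 to 4844 higher and 2833 to 5076 lower. The most, 18 members, came without GLCC1 siRNA replicate 2 and the fewest, 5, without Control siRNA replicate 2 or 3. The share called over all genes was 44.1% without GLCC1 siRNA replicate 2. It was 23.2% and 23.1% without Control siRNA replicates 2 and 3, respectively. In these fits HNRNPA2B1 ran from -0.083 to 0.053, HNRNPC from -0.074 to 0.0087, HNRNPK from -0.057 to 0.040, HNRNPH1 from -0.040 to 0.10 and SRSF9 from -0.043 to 0.073, with signs turning. The cause of these changes was not tested. Libraries with the same replicate number did not deviate together (correlations -0.16, -0.29 and -0.01 over 14875 genes). With the replicate number as a block, 1 SR protein and 3 hnRNP genes were higher and 4 hnRNP genes lower, and 28.3% of all genes were called. SRSF8, HNRNPM and HNRNPUL2 were not called under this block. Adding pseudogene counts to the parent genes, an alternative chosen after seeing the data, called HNRNPA1 in addition. The 95% intervals of HNRNPA2B1 and HNRNPK reached 0.18 on either side of 0 and leave smaller differences open.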
